A study of Saccharomyces cerevisiae with 12 samples.

Results

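The genes described here encode the enzymes with which Saccharomyces cerevisiae breaks down proline, arginine and γ-aminobutyrate (GABA), together with the activators of the proline and GABA genes. They were chosen by name, with earlier results of these data known. These were PUT1, PUT2 and PUT3 for proline, CAR1 and CAR2 for arginine, and UGA1, UGA2 and UGA3 for GABA. Each was read by 1 probe set, a group of short probes against 1 transcript, so that they make 8 of the 5449 genes tested. The 3 further probe sets annotated as car1, car2 or uga1 are for the fission yeast S. pombe and were left out. The mean signal of all 8 genes lay above 1.37, a level that 95% of the 1746 probe sets for S. pombe on the array did not reach.

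RNA from exponential cultures was hybridised to 12 Affymetrix Yeast Genome 2.0 arrays in 4 groups of 3. The groups were H2B R95A cells given 200 ng/ml rapamycin for 30 min, untreated H2B R95A cells, H2B WT cells given the same treatment, and untreated H2B WT cells. R95A puts alanine in place of the arginine at residue 95 of histone H2B. In both strains both chromosomal copies of the H2A and H2B gene pair are deleted, and the only H2A and H2B come from a plasmid. Both are therefore models of a plasmid-borne histone and not of the native locus, and both carry auxotrophic markers. The labels number the arrays of a group 1, 2 and 3 and do not say whether they came from separate cultures, so the p-values measure the spread between these arrays, which may be technical. With 3 arrays in a group, the number of arrays limits the precision, and an exact permutation test of 3 against 3 cannot give a p below 0.1.

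Signals are log2 values, so that a difference of 1 is 2-fold, and they are comparable between arrays for 1 gene but not between genes. The median signal of the tested probe sets was between 7.25 and 7.30 on all arrays. The 4 arrays numbered 1 stood apart: the mean signal of 12 genes repressed by glucose, such as ADH2 and PCK1, was between 10.5 and 10.8 on them and between 5.95 and 8.38 on the other 8. Markers of MATa, the mating type that the study gives for the parent strain, were checked as well. The mean of 6 a-specific genes was between 4.59 and 5.72 in H2B R95A and between 8.51 and 10.4 in H2B WT, and that of 7 haploid-specific genes between 4.30 and 5.41 against 7.27 and 7.99. Of these, 5 of the a-specific and 7 of the haploid-specific genes were lower in H2B R95A past the test in each condition. Of all probe sets 0.4% passed in untreated cells and 0.346% with rapamycin, in either direction. The 4 α-specific genes averaged 3.48 to 3.89 in H2B R95A and 4.38 to 4.97 in H2B WT, and 0 of them passed. In each condition 3 of these 4 lay below in H2B R95A without overlap. So did 4.22% of all probe sets in untreated cells and 2.75% with rapamycin. The part of the mating-type and haploid markers in the strain comparisons of the 8 genes was not tested. HTB1, which encodes H2B, differed between H2B R95A and H2B WT by 0.04 without and 0.15 with rapamycin, and a probe set cannot show the substitution itself.

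Budding yeast uses proline, arginine and GABA as nitrogen sources when ammonium or glutamine run short. Proline enters through the permease Put4 and is oxidised in the mitochondrion by Put1, proline oxidase, and then by Put2, pyrroline-5-carboxylate dehydrogenase, which yields glutamate. Arginase, Car1, splits arginine into urea and ornithine, and Car2, ornithine transaminase, turns ornithine into an intermediate that feeds the proline route. Uga1, GABA transaminase, and Uga2, succinate semialdehyde dehydrogenase, convert GABA to succinate. Put3 and Uga3 are zinc cluster activators that respond to proline and to GABA. Many of these genes are also under nitrogen catabolite repression, in which TORC1, the kinase complex that rapamycin inhibits, keeps the GATA activators Gln3 and Gat1 from acting while good nitrogen sources last.

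The first question was whether rapamycin altered the catabolic genes in either strain. PUT1 had the largest rapamycin difference of the 8 genes in both strains, and CAR1, UGA1 and UGA2 were also higher on average with rapamycin in both. None of the 8 passed the test, which was a limma fit to all 12 arrays with a Benjamini-Hochberg adjusted p under 0.05 over 5498 probe sets. PUT2, PUT3 and UGA3 had mean differences near 0 in H2B WT and CAR2 one near 0 in H2B R95A. Calls in H2B R95A changed when all arrays numbered 1, or only replicate 1 of untreated H2B R95A, were left out, as described below.

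PUT1 (probe set 1775678_at) had signals of 10.27, 9.81 and 8.59 in H2B R95A with rapamycin, for replicates 1, 2 and 3, against 10.26, 6.76 and 6.47 in untreated H2B R95A. In H2B WT it had 10.50, 9.75 and 8.78 with rapamycin, against 9.69, 7.31 and 7.64 untreated. The untreated replicate 1 of each strain was high, so that the groups overlapped, while replicates 2 and 3 were higher with rapamycin in both strains. The log2 difference was 1.73 in H2B R95A (SE 0.965, 95% interval -0.39 to 3.85, limma adjusted p = 0.379) and 1.46 in H2B WT (SE 0.965, 95% interval -0.66 to 3.59, limma adjusted p close to 1). As folds these mean differences were 3.32 and 2.76, and both intervals included 0. PUT1 was the most variable of the 8 genes, with an SD over the 12 arrays of 1.45 that lay at the 98.5 percentile of the tested probe sets.

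**Figure D1:**
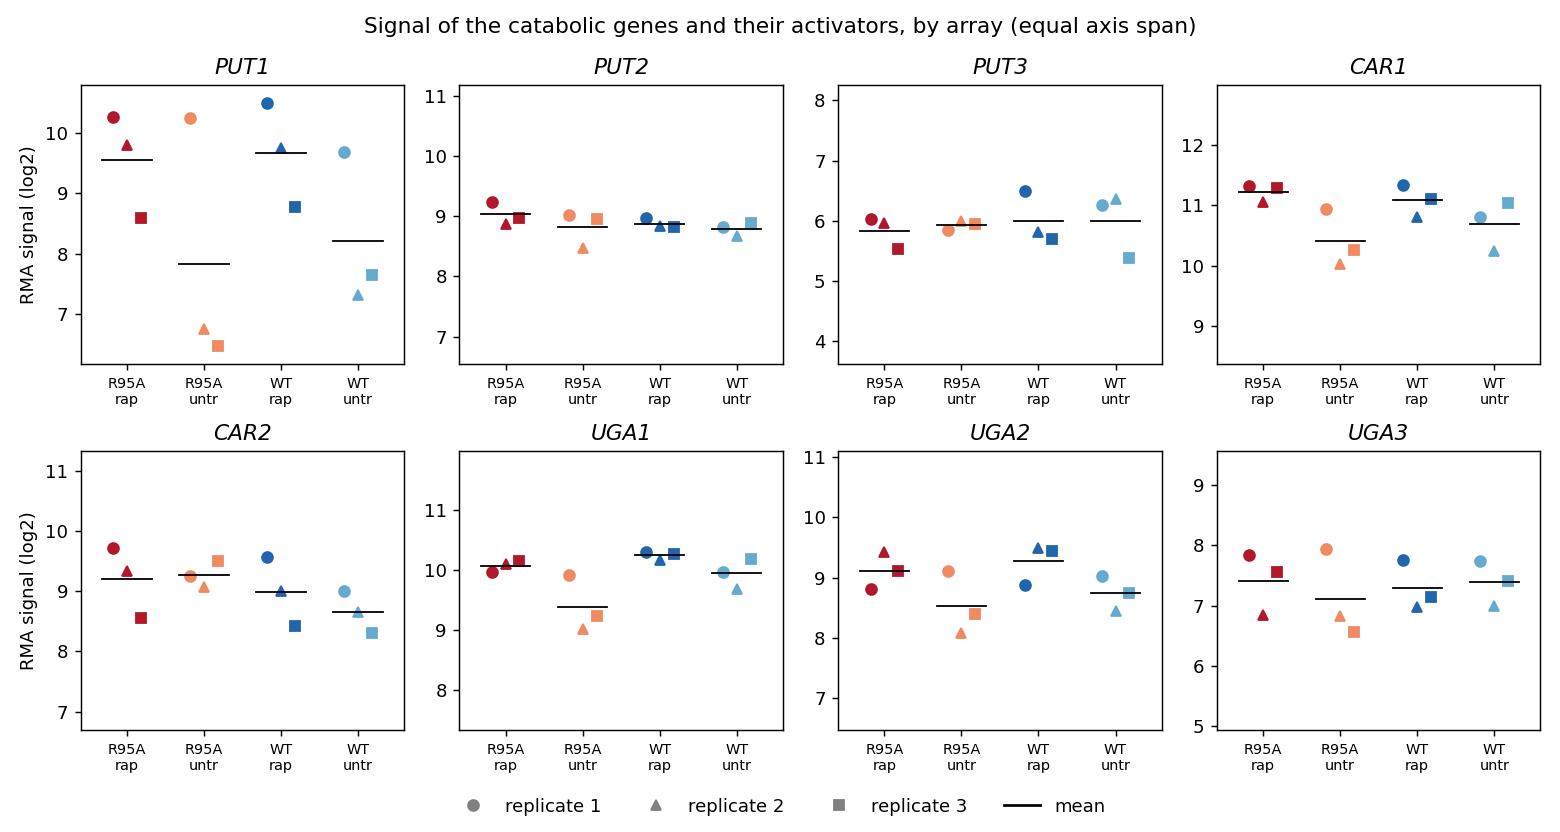
RMA signal (log2, vertical axis) of each gene on each of the 12 arrays, by group from left to right: H2B R95A with rapamycin, H2B R95A untreated, H2B WT with rapamycin and H2B WT untreated. Symbols mark the replicate number, bars are group means, and all panels span the same number of log2 units: PUT1 runs from 6.47 to 10.50, with replicate 1 of both untreated groups near the treated arrays, while PUT2 stays between 8.48 and 9.24.

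CAR1 (probe set 1778654_at) had signals of 11.31, 11.05 and 11.29 in H2B R95A with rapamycin, against 10.93, 10.02 and 10.25 in untreated H2B R95A. All 3 treated arrays were above all 3 untreated ones. In H2B WT the values were 11.34, 10.81 and 11.11 with rapamycin, against 10.81, 10.24 and 11.03 untreated, and there the groups overlapped. The difference was 0.82 in H2B R95A (SE 0.279, 95% interval 0.20 to 1.43, unadjusted p = 0.0135, limma adjusted p = 0.178) and 0.39 in H2B WT (SE 0.279, 95% interval -0.22 to 1.00). CAR2 (probe set 1775480_at), the next enzyme of the route, differed from CAR1 in its pattern. It had 9.72, 9.33 and 8.55 in H2B R95A with rapamycin, against 9.25, 9.06 and 9.51 untreated, with replicate 3 lower and the other replicates higher with rapamycin. In H2B WT it had 9.56, 9.00 and 8.42 with rapamycin, against 9.01, 8.66 and 8.30 untreated, and the groups overlapped again. Its difference was -0.07 in H2B R95A and 0.34 in H2B WT (SE 0.351 each).

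UGA1 (probe set 1774010_at) had signals of 9.97, 10.10 and 10.15 in H2B R95A with rapamycin, against 9.92, 9.02 and 9.24 untreated. These groups did not overlap, although the 2 arrays numbered 1 were only 0.05 apart. In H2B WT it had 10.30, 10.16 and 10.26 with rapamycin, against 9.97, 9.68 and 10.18 untreated, and replicate 3 of the untreated cells lay within the treated range. The difference was 0.68 in H2B R95A (SE 0.236, 95% interval 0.16 to 1.20, unadjusted p = 0.015, limma adjusted p = 0.183) and 0.30 in H2B WT (SE 0.236, 95% interval -0.22 to 0.82). UGA2 (probe set 1775744_at), the following enzyme, had 8.82, 9.42 and 9.10 in H2B R95A with rapamycin, against 9.10, 8.08 and 8.39 untreated. It had 8.88, 9.50 and 9.44 in H2B WT with rapamycin, against 9.02, 8.45 and 8.75 untreated. In both strains replicate 1 was lower with rapamycin while replicates 2 and 3 were higher, and the groups overlapped. Its difference was 0.59 in H2B R95A (limma adjusted p = 0.326) and 0.53 in H2B WT (SE 0.298 each).

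PUT2 (probe set 1773117_at), the dehydrogenase after Put1, varied little. It had 9.24, 8.87 and 8.98 in H2B R95A with rapamycin, against 9.02, 8.48 and 8.95 untreated, and 8.97, 8.84 and 8.81 in H2B WT with rapamycin, against 8.82, 8.67 and 8.88 untreated. The groups overlapped in both strains. Its SD over the 12 arrays, 0.188, lay at the 7.33 percentile of the tested probe sets, and its differences were 0.21 (95% interval -0.22 to 0.64) in H2B R95A and 0.08 (95% interval -0.34 to 0.51) in H2B WT, so that a 2-fold difference lay outside both intervals.

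The activators differed less than PUT1. PUT3 (probe set 1770773_at), the activator of PUT1 and PUT2, had 6.03, 5.96 and 5.53 in H2B R95A with rapamycin, against 5.85, 5.99 and 5.95 untreated. In H2B WT it had 6.49, 5.81 and 5.70 with rapamycin, against 6.26, 6.36 and 5.38 untreated. Both pairs overlapped, and the differences were -0.09 (95% interval -0.74 to 0.55) in H2B R95A and -0.0038 (95% interval -0.65 to 0.64) in H2B WT. UGA3 (probe set 1773191_at), the activator of the GABA genes, had 7.85, 6.84 and 7.56 in H2B R95A with rapamycin, against 7.93, 6.83 and 6.56 untreated, and 7.76, 6.97 and 7.14 in H2B WT with rapamycin, against 7.74, 7.00 and 7.41 untreated. On the arrays numbered 1 and 2 its treated and untreated signals lay within 0.09 of each other in both strains. Its differences were 0.30 (95% interval -0.55 to 1.16) in H2B R95A and -0.09 (95% interval -0.95 to 0.77) in H2B WT. Without replicate 1 of untreated H2B R95A, the first of these was 0.72 (limma adjusted p = 0.185).

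Counted together, 0 of the 8 genes passed the test with rapamycin in H2B R95A and 0 in H2B WT, where the percentage of all tested probe sets that passed was 0 in each. At the threshold of the study, at least 2-fold and p at most 0.01, 0 of 8 passed in either strain, against 0.418% of all probe sets higher and 4.73% lower in H2B R95A, and 0.127% higher and 0.382% lower in H2B WT. At an unadjusted p under 0.05, 2 of 8 (CAR1 and UGA1) were higher in H2B R95A, where 7.15% of all probe sets were higher and 10.2% lower, and 0 in H2B WT, where 0.837% were higher and 3.44% lower. With cyber-T, the test that the methods name, 0 of 8 passed after adjustment in each strain, where 4.64% of all probe sets passed in H2B R95A and 0.127% in H2B WT. By the same test 2 of 8 in H2B R95A (PUT1 and CAR1) and 1 in H2B WT (PUT1) had an unadjusted p under 0.05. So had 15.1% and 5.29% of all probe sets, in either direction. Groups did not overlap for CAR1 and UGA1 in H2B R95A, both with rapamycin above untreated, as for 8.51% of all probe sets, with 9.37% in the opposite direction. None of the 8 was free of overlap in H2B WT, where 3.97% of probe sets were so with rapamycin above and 3.73% below. The median difference of the 8 was 0.45 in H2B R95A, against 0.10 over all tested probe sets, and 0.32 in H2B WT, against 0.04.

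**Figure D2:**
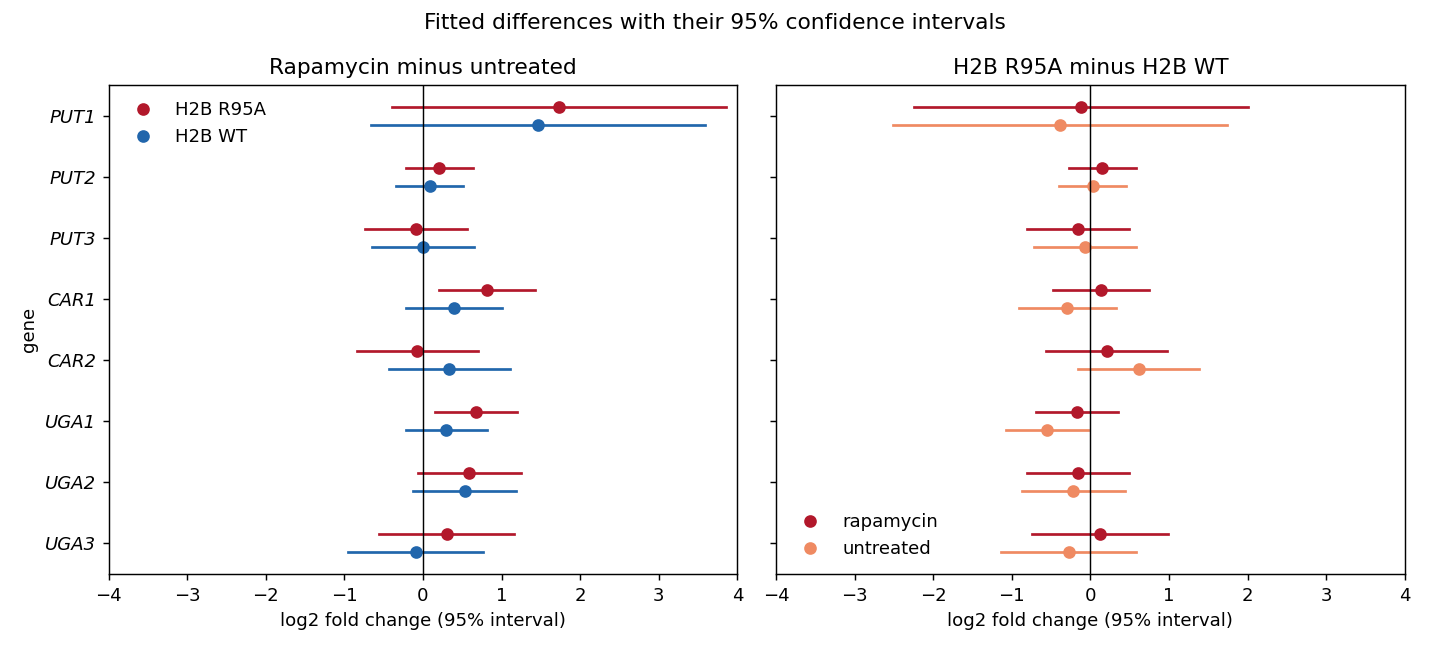
Fitted log2 differences (horizontal axis) with 95% intervals for the 8 genes, for rapamycin minus untreated in each strain (left) and H2B R95A minus H2B WT in each condition (right). The interval excludes 0 for CAR1 and UGA1 with rapamycin in H2B R95A and for UGA1 between the untreated strains, and none of the points passed the adjusted test.

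The arrays numbered 1 bore on these values. PUT1 was higher on array 1 than on the mean of arrays 2 and 3 in every group, by 1.07 in H2B R95A with rapamycin, 3.65 in untreated H2B R95A, 1.23 in H2B WT with rapamycin and 2.21 in untreated H2B WT. UGA3 was likewise higher on array 1 in all 4 groups, by 0.65, 1.24, 0.70 and 0.53 in the same order. The replicate number took up 76.8% of the within-group spread of PUT1, 79.2% of that of UGA3, 69.6% of that of CAR1, 64.2% of that of PUT2, 55.7% of that of CAR2 and 52.4% of that of PUT3. It took up 32.2% for UGA1 and 1.59% for UGA2. A replicate number without bearing on the signal would on average also take up part of this spread. These shares were not compared with those of all tested probe sets, so they do not set the genes apart from the rest. PUT1 and the glucose-repressed genes were both high on all 4 arrays numbered 1, and what the number stands for is not given in the sources used here. The part of growth state in the PUT1 signal was not tested.

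**Figure D3:**
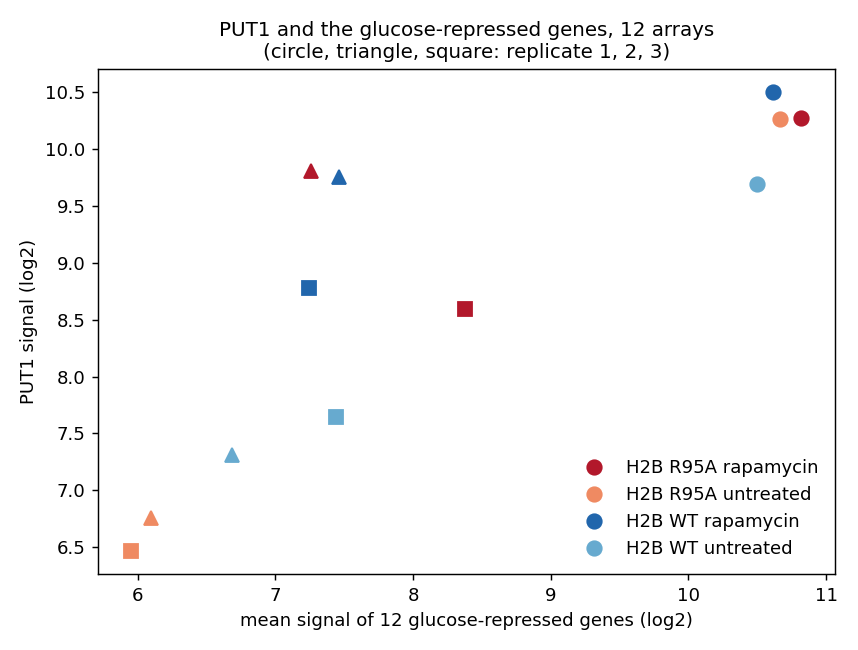
PUT1 signal (log2, vertical axis) against the mean signal of 12 glucose-repressed genes (log2, horizontal axis), 1 point per array, coloured by group with the replicate number as the symbol. The 4 arrays numbered 1 lie together at 10.5 to 10.8 on the horizontal axis, with PUT1 between 9.69 and 10.50, and among the other 8 the treated arrays of both strains have PUT1 at 8.59 or above while the untreated ones are at 7.64 or below.

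Between same-numbered arrays, rapamycin minus untreated for PUT1 was 0.01, 3.05 and 2.12 for numbers 1, 2 and 3 in H2B R95A, and 0.81, 2.44 and 1.14 in H2B WT. The 6 differences were all above 0, and the smallest was that of number 1 in each strain. UGA2 gave -0.29, 1.35 and 0.72 in H2B R95A, and -0.14, 1.05 and 0.69 in H2B WT, so that number 1 had the opposite sign to the others in both strains. UGA1 gave 0.05, 1.08 and 0.91 in H2B R95A, and 0.33, 0.48 and 0.09 in H2B WT. CAR1 gave 0.38, 1.03 and 1.04 in H2B R95A, and 0.53, 0.57 and 0.08 in H2B WT. UGA1 and CAR1 were thus above 0 in all 6 differences each, like PUT1, some of them barely. The share of all probe sets for which this held was not computed. In H2B R95A the numbers did not pair, with correlations of deviations from group means of 0.42, 0.48 and 0.01. These differences are therefore a description and not paired replicates.

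**Figure D4:**
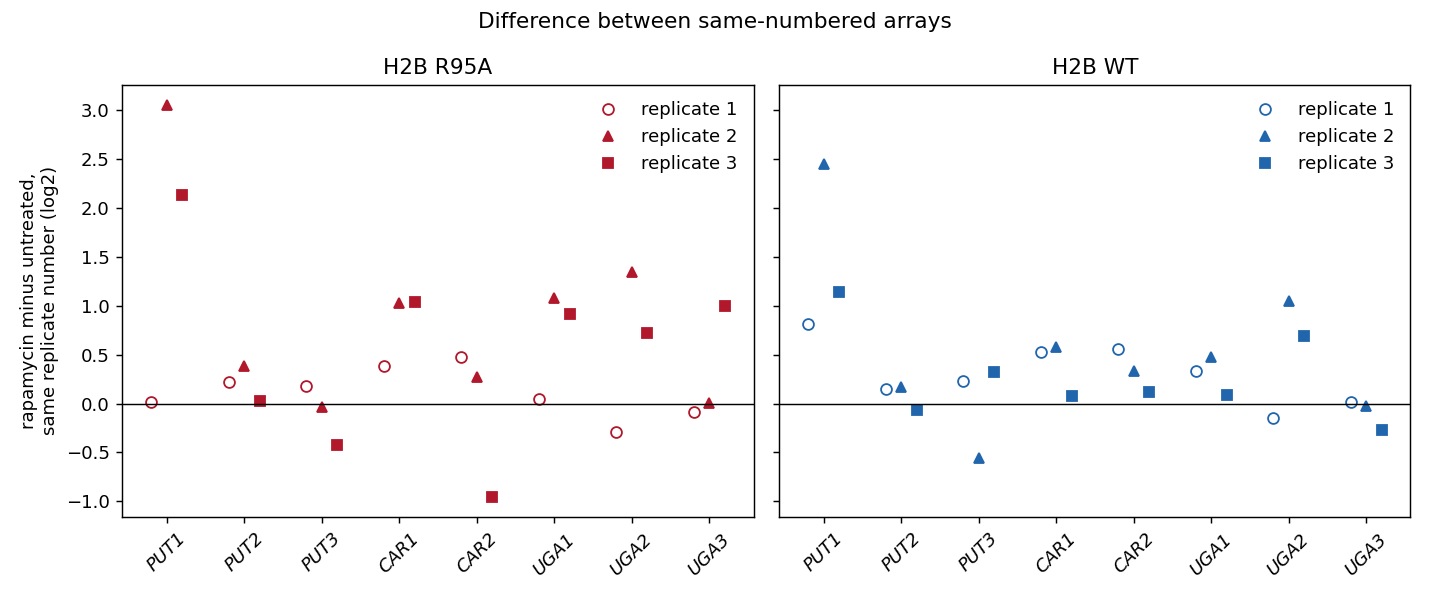
Rapamycin minus untreated signal (log2, vertical axis) between arrays of the same replicate number, for each gene in H2B R95A (left) and H2B WT (right). Open circles are number 1 and filled symbols numbers 2 and 3: for PUT1 and UGA2 the open circle is the lowest of the 3 in both strains, at 0.01 and 0.81 for PUT1 and -0.29 and -0.14 for UGA2.

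Without the 4 arrays numbered 1, 3 of the 8 genes passed the test with rapamycin in H2B R95A. PUT1 rose by 2.59 (limma adjusted p = 0.0394), UGA2 by 1.03 (adjusted p = 0.0394) and UGA1 by 0.99 (adjusted p = 0.0414), and CAR1 differed by 1.03 with an adjusted p of 0.0552. In that fit 5.75% of all probe sets passed as higher. PUT1, CAR1 and UGA2 also reached the threshold of the study there, as did 4.78% of all probe sets upwards. The glucose-repressed genes differed between the same arrays: on replicates 2 and 3 their mean was 7.26 and 8.38 in H2B R95A with rapamycin, against 6.09 and 5.95 untreated, and 7.46 and 7.25 in H2B WT with rapamycin, against 6.68 and 7.44 untreated. Over all 12 arrays 12 of these 12 genes had a difference above 0 with rapamycin in H2B R95A, with a median of 1.26, and 8 in H2B WT, with a median of 0.19, and 0 passed the test in either. Their part in the result was not tested. Leaving out only replicate 1 of untreated H2B R95A also let 3 genes pass, PUT1 at 2.95 (adjusted p = 0.0325), CAR1 at 1.08 (adjusted p = 0.0287) and UGA1 at 0.94 (adjusted p = 0.0229), beside 5.27% of all probe sets higher. PUT1 and CAR1 were then at the threshold of the study as well, beside 4.11% upwards. With weights for array quality 4 passed, PUT1, CAR1, UGA1 and UGA2, with adjusted p between 0.0122 and 0.0331, beside 8.17% of all probe sets higher, and PUT1 reached the threshold of the study, beside 3.71% upwards. In H2B WT 0 of 8 passed in any of these fits. Without the arrays numbered 1 the PUT1 difference in H2B WT was 1.79 (SE 0.458, adjusted p = 0.552) and reached the threshold of the study, as 0.309% of all probe sets did upwards, and UGA2 was at 0.87 (SE 0.212). PUT1 also reached that threshold in H2B R95A with the replicate number as a block, beside 1.36% of all probe sets upwards, and in H2B WT by cyber-T, beside 0.327%.

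The second question was whether the responses of the strains differed. For each gene the rapamycin difference in H2B R95A minus that in H2B WT was tested in the same fit. 0 of 8 passed, 0 reached an unadjusted p under 0.05 and the percentage of all tested probe sets that passed was 0, with 0.0546% of all probe sets above and 0.0909% below 0 at an unadjusted p under 0.05. At the threshold of the study 0 of 8 passed, against 0.0182% of all probe sets below 0 and 0 above. The largest values were 0.42 for CAR1 (95% interval -0.44 to 1.29), -0.41 for CAR2 (95% interval -1.50 to 0.68), 0.40 for UGA3 (95% interval -0.82 to 1.61) and 0.38 for UGA1 (95% interval -0.35 to 1.11). Without replicate 1 of untreated H2B R95A the values were 0.69 for CAR1, -0.42 for CAR2, 0.81 for UGA3 and 0.64 for UGA1. The largest there was 1.48 for PUT1 (SE 0.992), and 0 of 8 passed. UGA1 then had an unadjusted p under 0.05, as had 8.84% of all probe sets in either direction. The same held for UGA1 with array quality weights, where its value was 0.60 and 5.4% of all probe sets were at that level. For PUT1 the difference between the responses was 0.27 in the reported fit, with an interval of -2.73 to 3.26. That interval holds differences of more than 2-fold in either direction. With 1 array left out the PUT1 value ran from -0.47 to 1.48. Without the arrays numbered 1 it was 0.80 (SE 0.648). The smallest value of the reported fit, 0.06, was that of UGA2 (95% interval -0.87 to 0.98).

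The third question was whether the mutant differed from H2B WT within a condition. These comparisons share their arrays with the rapamycin comparisons above and are not independent of them. In untreated cells UGA1 had 9.92, 9.02 and 9.24 in H2B R95A, against 9.97, 9.68 and 10.18 in H2B WT, and the groups overlapped through replicate 1 of the mutant. The difference was -0.55 (SE 0.236, 95% interval -1.07 to -0.03, unadjusted p = 0.0395, limma adjusted p = 0.733). CAR2 had 9.25, 9.06 and 9.51 in untreated H2B R95A, against 9.01, 8.66 and 8.30 in untreated H2B WT, with every mutant array above every H2B WT array. Its difference was 0.62 (SE 0.351, 95% interval -0.15 to 1.39, limma adjusted p = 0.733). The other 6 differences in untreated cells were between -0.39 for PUT1 and 0.03 for PUT2. In untreated cells 0 of 8 passed the test, where 0.4% of all probe sets did. UGA1 was the 1 gene of the 8 lower at an unadjusted p under 0.05, as were 3.16% of all probe sets, with 1.76% higher. CAR2 was the 1 free of overlap with the mutant above, as were 2.69%, and 0 of the 8 were with the mutant below, where 4.22% of all probe sets were.

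Between the treated strains UGA1 had 9.97, 10.10 and 10.15 in H2B R95A, against 10.30, 10.16 and 10.26 in H2B WT, without overlap but with a difference of only -0.17 (SE 0.236, 95% interval -0.69 to 0.35). The 8 differences were between -0.17 for UGA1 and 0.21 for CAR2, and their median was 0.00093, against 0.02 over all tested probe sets. 0 of 8 passed the test, where 0.346% of all probe sets did, and 0 had an unadjusted p under 0.05, against 0.2% of all probe sets higher and 1.31% lower. UGA1 was the 1 gene free of overlap with H2B R95A below, as were 2.75% of all probe sets, and 0 were with H2B R95A above, against 1.64%. By cyber-T 0 of 8 passed in either strain comparison, against 0.509% of all probe sets in untreated cells and 0.546% with rapamycin. At an unadjusted p under 0.05 by that test there were 0 of 8 in either, against 5.66% of all probe sets in untreated cells and 1.58% with rapamycin. At the threshold of the study 0 of 8 passed in either, against 0.164% of all probe sets higher and 0.8% lower in untreated cells and 0.109% higher and 0.582% lower with rapamycin. In bulk RNA fewer expressing cells and less RNA per cell cannot be told apart.

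By group, PUT1 averaged 9.56 ± 0.868 in H2B R95A with rapamycin, 7.83 ± 2.11 in untreated H2B R95A, 9.68 ± 0.862 in H2B WT with rapamycin and 8.21 ± 1.29 in untreated H2B WT (SD, n = 3 each). The order ran from untreated H2B R95A at the bottom through untreated H2B WT and H2B R95A with rapamycin to H2B WT with rapamycin, and the array ranges of all neighbours in it overlapped. UGA1 followed the same order, with means of 10.07 ± 0.0936, 9.39 ± 0.469, 10.24 ± 0.0716 and 9.94 ± 0.249 in the same groups. For UGA2 the means were 9.11 ± 0.303, 8.52 ± 0.527, 9.27 ± 0.343 and 8.74 ± 0.286, again in that order. Neighbours overlapped in these orders too, except H2B R95A and H2B WT with rapamycin for UGA1. CAR1 averaged 11.22 ± 0.143, 10.40 ± 0.472, 11.08 ± 0.263 and 10.69 ± 0.411, with H2B R95A highest with rapamycin and lowest without. CAR2 was highest in untreated H2B R95A, at 9.27 ± 0.225, and lowest in untreated H2B WT, at 8.66 ± 0.355. The highest and lowest group means of PUT2, PUT3 and UGA3 were 0.24, 0.17 and 0.30 apart.

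Among themselves the genes fell into no single pattern. Over the 12 arrays, which share groups and replicate numbers, the 28 pairs had Pearson correlations between -0.28 (PUT3 with UGA2) and 0.88 (CAR1 with UGA1). Of these correlations 22 were above 0. The pair UGA1 and UGA2 was at 0.82 and PUT1 and CAR1 at 0.76. The enzymes of 1 route were not always alike, as CAR1 and CAR2 were at 0.03. Without the arrays numbered 1 the correlation of PUT1 and UGA2 was 0.95, against 0.70 over all 12, that of CAR1 and UGA1 0.92, and that of CAR2 and UGA3 -0.87, against 0.11 over all 12. Of the activators, PUT3 was at 0.21 with PUT1 and -0.12 with PUT2, and UGA3 at 0.52 with UGA1 and 0.24 with UGA2. Leaving out the arrays numbered 1, PUT3 was at -0.25 with PUT1 and -0.54 with PUT2. UGA3 was then at 0.66 with UGA1 and 0.32 with UGA2.

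The genes most like each member were taken from the 2749 probe sets whose SD was at least the median. For PUT1 they were ATO2 at a correlation of 0.985, DAL2, which encodes allantoicase of the allantoin route, at 0.984, and CIT3, a mitochondrial citrate synthase, at 0.977, and without the arrays numbered 1 they were at 0.975, 0.977 and 0.979. For CAR1 they were STB2 at 0.972, ATG34 at 0.962 and ARO80, the activator of aromatic amino acid breakdown, at 0.958. For UGA1 they were XBP1, a transcriptional repressor, at 0.973, REC8, a meiotic cohesin subunit, at 0.970 and again ATG34 at 0.962. For UGA2 they were CMC4 at 0.937, KAP120 at 0.921 and CHA1, which encodes serine and threonine deaminase, at 0.920. For CAR2 the closest was ABF1 at 0.954, for UGA3 LST7 at 0.982, for PUT2 CCC2, a copper transporter, at 0.938 and for PUT3 FAA4, a fatty acyl-CoA synthetase, at 0.843. These values are the highest of many correlations over the same 12 arrays, which share groups and replicate numbers, and are a description only. Those without the arrays numbered 1 come from 8 of the arrays that chose the genes, so they are no separate check.

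The permeases that feed these routes, and the regulators that act with the activators, formed a list of 10 genes. 0 of 10 passed the test with rapamycin in either strain, and CAN1, the arginine permease, reached the threshold of the study in both. Upwards, 0.418% of all probe sets reached it in H2B R95A and 0.127% in H2B WT. CAN1 had 9.65, 9.84 and 8.28 in H2B R95A with rapamycin, against 8.35, 7.63 and 7.66 untreated, and 9.88, 9.58 and 9.00 in H2B WT with rapamycin, against 8.24, 7.58 and 7.53 untreated. Only in H2B R95A did the groups overlap, through treated replicate 3, which was below untreated replicate 1. Its difference was 1.37 in H2B R95A (limma adjusted p = 0.146) and 1.70 in H2B WT (SE 0.413 each). PUT4, the proline permease, had 10.76, 7.13 and 4.58 in H2B R95A with rapamycin, against 10.30, 3.30 and 4.17 untreated, and 10.52, 6.82 and 5.29 in H2B WT with rapamycin, against 9.90, 3.98 and 3.62 untreated. Like PUT1 it was high on every array numbered 1, and its difference was 1.57 in H2B R95A and 1.71 in H2B WT (SE 2.30 each). UGA4, the GABA permease, differed by 1.39 and 1.30 (SE 0.763 each). ALP1, a permease of basic amino acids, differed by 0.08 and 0.29. The 6 regulators, DAL81, ARG80, ARG81, ARG82, MCM1 and UME6, were between -0.46 and 0.38 in both strains.

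The genes that make arginine and proline were also compared. Of the arginine biosynthesis list 8 of 10 genes had a tested probe set, 0 passed in either strain and the medians were -0.27 in H2B R95A and 0.06 in H2B WT. In H2B R95A 2 of these 8 lay below without overlap, ARG7 at -0.76 and ARG2 at -0.49, as did 9.37% of all probe sets. In H2B WT 2 lay above without overlap, as did 3.97%, and 0 below, against 3.73%. PRO1 encodes γ-glutamyl kinase, at the first step of proline synthesis. It had 7.41, 5.70 and 6.53 in H2B R95A with rapamycin, against 7.76, 8.36 and 8.16 untreated. These did not overlap, as was so for 9.37% of all probe sets in that direction. PRO1 differed by -1.55 there (SE 0.536, limma adjusted p = 0.181). In H2B WT it had 7.56, 5.61 and 6.10 with rapamycin, against 7.85, 7.96 and 6.86 untreated, and differed by -1.13 (SE 0.536). PRO2 differed by -0.87 in H2B R95A and -0.18 in H2B WT, and PRO3 by -0.27 and 0.26. The PRO1 and PUT1 mean differences lay on opposite sides of 0 in both strains, and neither gene passed the test. Each had the largest difference of its list, so the pair does not stand for the lists. PRO3 lay above 0 in H2B WT, and PUT3 lay below 0 in both strains.

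A further list held 15 other targets of nitrogen catabolite repression. Of these genes, PUT4 and UGA4 among them, 15 had a difference above 0 with rapamycin in each strain, with a median of 1.11 in H2B R95A and 1.17 in H2B WT, and 0 passed the test in either. Over all tested probe sets 59.8% lay above 0 in H2B R95A and 56.3% in H2B WT. In H2B R95A the count of the 15 was 14 with spike-in centring or quantile normalization over the tested probe sets. Averaged over the 15 genes, treated H2B R95A had 8.08, 8.10 and 6.53 by replicate number, against 7.40, 5.61 and 5.92 untreated. Treated H2B WT had 8.43, 7.87 and 7.22, against 7.33, 5.99 and 6.17 untreated. Replicate 3 of H2B R95A was thus the lowest treated array, and in both strains treated replicate 3 lay below untreated replicate 1. DAL3, an enzyme of the allantoin route, differed by 2.82 in H2B R95A and 2.76 in H2B WT (SE 0.641 each) and MEP2, an ammonium permease, by 2.73 and 3.50 (SE 1.02 each). In H2B R95A 1 of the 15 reached the threshold of the study, DAL3, beside 0.418% of all probe sets upwards, and in H2B WT 3 did, DAL3, DUR3 and MEP2, beside 0.127%. Of the 5 genes for GATA factors and Ure2, which holds Gln3 back, 0 passed the test, and DAL80, a GATA repressor, was at the threshold of the study in both strains, with 2.40 in H2B R95A (limma adjusted p = 0.0941) and 2.31 in H2B WT. GLN3 differed by 0.12 and -0.17, GAT1 by 0.88 and 0.42, GZF3 by 0.44 and 0.38, and URE2 by -0.32 and -0.43. Of 6 genes of glutamate and GABA formation 0 passed, with medians of 0.56 in H2B R95A and 0.78 in H2B WT. GDH3 and GDH1, which encode glutamate dehydrogenases, differed by 2.01 and 0.59 in H2B R95A and by 1.64 and 1.30 in H2B WT. The SE was 1.31 for GDH3 and 0.399 for GDH1. In H2B WT GDH1 was at the threshold of the study, beside 0.127% of all probe sets upwards. GDH3 was between 10.9 and 11.8 on the 4 arrays numbered 1.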

How the data were processed

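The deposited table holds log2 signals that the authors made from the scans by RMA in FlexArray 1.6.3, with its background correction and its quantile step, and all 12 of its columns were used. Of 10928 probe sets, the 5498 annotated with 1 S. cerevisiae gene were tested. A mean per group was fitted to all 12 arrays with limma 3.58.1 in R 4.3.3, with variances moderated by eBayes along a trend with signal, and 5 comparisons were drawn. Scripts were tested on simulated data. The members and lists were chosen with earlier results of these data known. Named genes were the 8 members, for each member up to 3 genes with the highest correlation, and up to 4 genes of each list with the largest change. Some genes under this rule are left out, and other list genes are given as examples or to complete a list, both decided with their values in view.

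Alternatives were cyber-T (window 101, confidence 10), eBayes without a trend, array quality weights, centring on array medians or on the 12 spike-in controls with poly-A, a new quantile normalization of the tested probe sets, a filter on low signal at the S. pombe level, a fit of the 6 arrays compared, a replicate block, the threshold of the study, leaving out each array, and leaving out the arrays numbered 1. Replicate numbers were checked as pairs by correlating deviations from group means: 0.88, 0.78 and 0.74 between the treated strains and 0.84, 0.41 and 0.77 with rapamycin in H2B WT, which pair, and 0.57, 0.83 and 0.06 between the untreated strains and 0.42, 0.48 and 0.01 with rapamycin in H2B R95A, which do not. No promoter, protein or genome sequence was used here.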

Additional observations from a re-analysis of the deposited data

How the results depend on the processing

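The count of the 8 genes past the test stayed at 0 in all comparisons and alternatives except with rapamycin in H2B R95A, where it was 4 with array quality weights (PUT1 2.53, CAR1 0.97, UGA1 0.89 and UGA2 0.87), 3 without the arrays numbered 1, and between 0 and 3 when 1 array was left out, with 3 only without replicate 1 of untreated H2B R95A. There the range of the difference with 1 array left out was 1.05 to 2.95 for PUT1, 0.63 to 1.08 for CAR1 and 0.49 to 0.94 for UGA1. At the threshold of the study, where 0 of 8 were called in the reported fit, those called in H2B R95A were PUT1 with the replicate block (adjusted p = 0.0679) and with array quality weights, PUT1 and CAR1 without replicate 1 of untreated H2B R95A, and PUT1, CAR1 and UGA2 without the arrays numbered 1. In H2B WT PUT1 was called by cyber-T (adjusted p = 0.435) and without the arrays numbered 1. The replicate block changed no call at the adjusted threshold. Over all probe sets with rapamycin in H2B R95A, 0 passed in the reported fit, against 13 higher and 242 lower by cyber-T and 449 higher and 581 lower with array quality weights, and 316 higher and 397 lower without the arrays numbered 1. Spike-in means ran from 4.35 to 5.93, and centring on them moved the median of all probe sets between the treated strains to -0.35, from 0.02, and that of the 8 genes to -0.37. It also turned the sign of PUT2 (-0.21), CAR1 (-0.23), CAR2 (-0.16) and UGA3 (-0.24) there, of PUT2 between the untreated strains (-0.15) and with rapamycin in H2B R95A (-0.015), and of PUT2 (-0.062) and UGA2 (-0.13) in the difference between responses. Without the arrays numbered 1, PUT2 (-0.060) and PUT3 (0.10) turned between the untreated strains. PUT3 turned with rapamycin in H2B WT under median centring (0.0065) and quantile normalization (0.055), and in the difference between responses with array weights (0.043). With 1 array left out, values that changed sign ran between the untreated strains from -1.60 to 0.35 for PUT1, -0.075 to 0.20 for PUT2, -0.38 to 0.11 for PUT3, -0.51 to 0.0059 for UGA2 and -0.68 to 0.0013 for UGA3. Between the treated strains they ran from -0.57 to 0.36 for PUT1, -0.31 to 0.082 for PUT3, -0.0033 to 0.26 for CAR1, -0.079 to 0.53 for CAR2 and -0.093 to 0.41 for UGA3. With rapamycin they ran from -0.19 to 0.061 for PUT3 and -0.33 to 0.25 for CAR2 in H2B R95A, and from -0.31 to 0.18 for PUT3 and -0.32 to 0.087 for UGA3 in H2B WT. In the difference between responses they ran from -0.47 to 1.48 for PUT1, -0.045 to 0.23 for PUT2, -0.27 to 0.22 for PUT3 and -0.16 to 0.35 for UGA2. The cause was not tested. Cyber-T and the fit of 6 arrays were not run for the difference between responses, and the promoter motif search was not run.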
